A study of Mus musculus with 12 samples.

Results

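Epiblast stem cells (EpiSC), the lines taken from the early post-implantation mouse embryo, were set against freshly dissected epiblast of embryonic day (E) 6.5, the stage at which gastrulation starts, to ask how far the cultured cells carry the transcripts of that tissue. The comparison used 4 of the 12 expression arrays of the study: 2 EpiSC arrays and 2 arrays of epiblast E6.5. Its members were the 21204 autosomal genes, of 22180 genes in all, whose probe set carried a single gene symbol. EpiSC were derived at E5.75 and grown on mouse embryonic fibroblasts (MEF) in N2B27 medium with knockout serum replacement (KSR) at 20%, 12 ng/ml of FGF2 and 20 ng/ml of Activin A. Tissue groups were epiblast taken from embryos at E5.75 and at E6.5 with no culture. The other groups were embryonic stem cells (ESC) derived at E3.5 and the rsEpiSC lines derived at E5.75 and E6.5. Their values served for reference, but the fit took the spread of each gene from all 12 arrays. The rsEpiSC lines, which the labels also call IS-EPI or intrinsic state epiblast stem cells, were grown on MEF with the Wnt pathway inhibitor IWR1 at 2.5 µM and a further factor whose name is missing from the labels. All groups carried the OCT4-deltaPE-GFP reporter, crossed with a C57BL strain whose number counts up from array to array in the labels, so that no strain difference was read from it. Nothing in the labels says whether the 2 arrays of a group came from separate cultures, embryos or litters, how many embryos were pooled or whether EpiSC were 1 line. The p-values therefore measure only the spread between arrays of the same group, taken over all groups of the fit, and that spread may be technical.

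The epiblast is the pluripotent tissue from which the whole body forms. Before gastrulation it is a single epithelial layer resting on a basement membrane, and it turns off the naive pluripotency genes of the blastocyst while it turns on Fgf5, Otx2 and the de novo DNA methyltransferases. At its posterior side Nodal, Wnt and BMP signals from the epiblast and its neighbours start the primitive streak, where Eomes and Mixl1 mark cells that leave the epithelium to form mesoderm and endoderm. EpiSC are held in culture by FGF and Activin, the latter acting through the same receptors as Nodal, and are described as a primed pluripotent state.

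Of the 21204 autosomal genes, 2422 were higher in EpiSC (11.4%) and 1982 were lower (9.35%) at an adjusted p under 0.05, so 20.8% of all genes passed; 3410 of these 4404 genes differed by at least 2-fold. Differences are given on the log2 scale as EpiSC minus epiblast E6.5 with the standard error of the fit, n = 2 arrays per group. Genes "rose" or "fell" where this difference passed in EpiSC. The median difference of all genes was -0.14, so every difference is 0.14 larger relative to that median. Over all genes, passed or not, the 2 arrays of one group lay wholly on one side of the 2 of the other group for 62.4% of genes, and such separation alone is a weak criterion here. In bulk samples, fewer cells of a type and less RNA per cell cannot be told apart. The count of genes that passed fell to 2105 without EpiSC array 1, to 2914 without EpiSC array 2 and to 2928 without epiblast array 1.

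Tissue arrays had a narrower range of signal than arrays of cultured cells. Their interquartile range was 2.23 to 2.68 on the log2 scale, against 3.23 and 3.31 for EpiSC. Among the lowest of 5 equal bins of genes by mean signal, the median difference was -0.44, with 8 genes higher and 516 lower. In the second highest bin, the median was 0.33, with 983 higher and 278 lower. The highest bin had 955 higher and 722 lower, and both bins held 4241 genes. Gene lists given below were not matched for signal, and their counts are to be read beside these. After quantile normalization, which gives all arrays the same distribution, the share of passed genes that were higher went from 55% to 49.7%, and the median of all genes was -0.03. Genes whose call was lost under that scaling are marked where they are named. Some genes used as loading references also differed. Actb, which codes for beta-actin, was at 9.42 and 9.72 on the EpiSC arrays and 6.14 and 6.15 on the epiblast arrays, and Rplp0, a ribosomal protein gene, at 11.05 and 11.05 against 6.70 and 7.01. On the rsEpiSC E6.5 arrays the same genes were at 9.37 and 9.52 and at 10.85 and 10.62, close to the EpiSC arrays. Of 11 reference genes 5 rose, 0 fell and 6 did not pass, and Tbp, Ywhaz and Polr2a were among those that did not pass, with differences of -0.12, -0.09 and 0.05. What part the signal range has in any single difference was not tested.

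**Figure D1:**
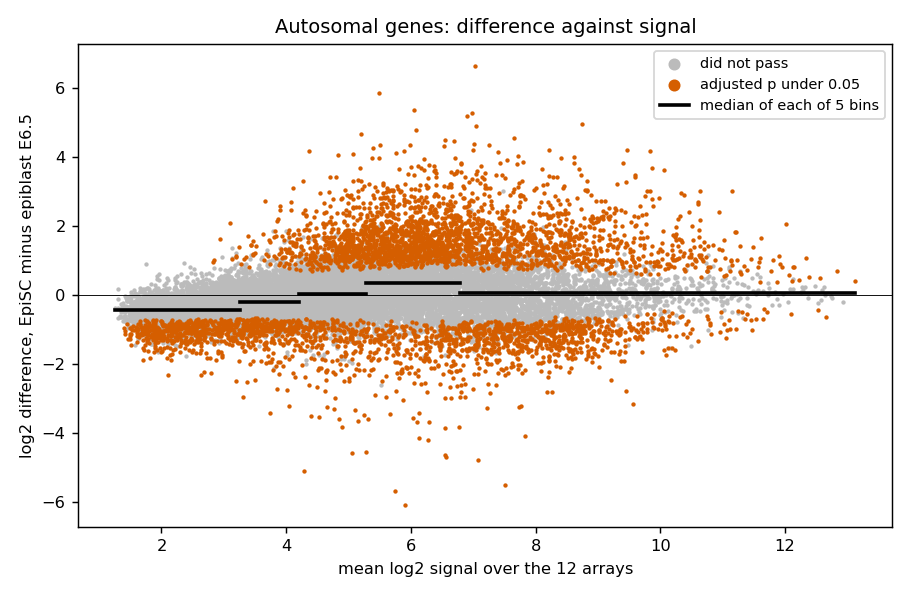
Log2 difference of EpiSC minus epiblast E6.5 (y axis) against mean log2 signal over all 12 arrays (x axis) for the 21204 autosomal genes, 1 point per gene. Orange points passed at an adjusted p under 0.05, and black bars give the median of each of 5 equal bins of the genes, from -0.44 in the lowest to 0.33 in the second highest.

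As whole profiles, EpiSC had close values of likeness to both stages of tissue. Over autosomal genes the correlation of the EpiSC mean with the epiblast mean was 0.918 at E6.5 and 0.912 at E5.75, and the root mean square log2 difference was 0.871 and 0.909. Single EpiSC arrays correlated with single arrays of epiblast E6.5 at 0.894 to 0.913 and with those of epiblast E5.75 at 0.871 to 0.915, so the ranges of both stages overlapped. For scale, the tissue stages differed from each other by a root mean square of 0.456, ESC from epiblast E6.5 by 0.872, rsEpiSC E5.75 by 0.806 and rsEpiSC E6.5 by 0.725. These values run across genes, which are not replicates, and all arrays share the same probes. Between the tissue stages, only 5 autosomal genes passed (0.0236%), while 2676 had an unadjusted p under 0.05, so the test of whether EpiSC lie nearer to one stage had few calls to rest on. That count was 21 and 150 without epiblast E5.75 array 1 and 2, and 2 and 0 without epiblast E6.5 array 1 and 2.

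Core pluripotency genes were measured at comparable levels for some members and at clearly different levels for others. Pou5f1, which codes for OCT4, was at 5.71 and 5.96 in EpiSC and 5.82 and 5.75 in epiblast E6.5, and the difference was 0.05 ± 0.33, adjusted p = 0.935. Nanog was at 8.80 and 8.77 in EpiSC and 8.81 and 8.53 in the tissue, a difference of 0.12 ± 0.35, adjusted p = 0.837. For both genes the arrays of the groups overlapped. Sox2, the partner of OCT4 on many of its sites, was at 6.89 and 6.82 in EpiSC and 9.77 and 9.50 in epiblast. Both EpiSC arrays were lower, and the difference was -2.78 ± 0.24, adjusted p = 3.67e-05, or -2.63 relative to the median of all genes. Sox2 is also a gene of the neural lineage, whose other members are given further on.

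Of 12 core pluripotency genes 2 rose, 3 fell and 7 did not pass, with a median difference of -0.01 beside -0.13 over all autosomal genes. Dppa4, which with Dppa2 binds chromatin at developmental genes, was at 4.73 and 5.50 in EpiSC against 8.44 and 7.77. It fell by 2.99, and Dppa2 fell by 1.87 (not passed without EpiSC array 1 or epiblast array 1). Dppa2 was one of the few genes that also differed between the tissue stages, at 5.66 and 4.82 in epiblast E6.5 and 7.88 and 8.39 in epiblast E5.75 (-2.90 ± 0.40, adjusted p = 0.0468, not passed without epiblast E5.75 array 1 or epiblast E6.5 array 1 or 2), and EpiSC were lower than both, at 3.23 and 3.5. The members that rose were Utf1, a chromatin-associated factor of pluripotent cells, by 2.28, and Tdgf1, the Nodal co-receptor Cripto, by 1.97 (not passed without EpiSC array 2 or epiblast array 1 or 2 or after quantile normalization). The 3 members named here that did not pass were Lin28a, an RNA-binding protein, at 0.55, Sall4 at 0.50 and Zfp281 at -0.77.

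Naive pluripotency genes, which mark the blastocyst and ESC, were divided. Of 22 members 6 rose, 2 fell and 14 did not pass, so that 36.4% passed beside 20.8% of all genes, with a median of 0.33. Klf4 was at 5.34 and 5.19 in EpiSC and 5.06 and 4.83 in epiblast, and Esrrb at 3.56 and 4.18 and 4.75 and 4.41. Neither passed, with differences of 0.32 ± 0.27, adjusted p = 0.432 and of -0.72 ± 0.31, adjusted p = 0.123. Zfp42, the Rex1 gene, fell by 1.38 (not passed with any 1 array left out or after quantile normalization). Dppa3, a gene of the oocyte, naive cells and primordial germ cells, was at 2.51 and 2.98 in EpiSC against 5.76 and 5.29, a fall of 2.78. The highest member in EpiSC relative to tissue was Nr5a2, a nuclear receptor that can drive Pou5f1, at 7.69 and 7.43 against 4.76 and 4.14. The EpiSC arrays were well apart from the tissue, and Nr5a2 rose by 3.12. Klf5, a Krüppel-like factor, rose by 2.01, Fbxo15 by 2.01, Stat3, the transducer of LIF signals, by 1.91, and Tet2, an enzyme that oxidizes methylated cytosine, by 1.42 (not passed without EpiSC array 1 or epiblast array 2).

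Genes of the post-implantation, primed epiblast fell more often than they rose. Of 20 members 1 rose, 6 fell and 13 did not pass, and the median was -0.98. Among its members, 1 rose and 3 fell without epiblast array 2 and 1 rose and 10 fell after quantile normalization. Fgf5, the growth factor gene most used to mark the post-implantation epiblast, was at 8.90 and 9.03 in epiblast E6.5 but at 3.94 and 6.62 on the EpiSC arrays, which differed from each other by more than any pair of the tissue. The difference was -3.69 ± 0.65, adjusted p = 0.00235. Dnmt3b, the main de novo DNA methyltransferase of this tissue, was at 7.58 and 9.31 in EpiSC against 11.75 and 11.45, with a difference of -3.15 ± 0.55, adjusted p = 0.00219. Otx2, a homeobox factor of the primed state and of the anterior embryo, was at 7.62 and 7.56 against 9.00 and 9.07, with a difference of -1.44 ± 0.33, adjusted p = 0.00934 (not passed without epiblast array 2). For all 3 genes both EpiSC arrays were below both tissue arrays, and epiblast E5.75, at 8.45 and 9.00, 11.43 and 11.59 and 9.28 and 9.35, was also above EpiSC. Lef1, a transcription factor through which Wnt signals act, fell by 2.82 from 7.64 and 7.79. Grhl2, a regulator of epithelial genes, fell by 1.00 (not passed without EpiSC array 1 or epiblast array 1 or 2) and Pou3f1, also called Oct6, by 0.97 (not passed with any 1 array left out). The only member that rose was Etv4, a factor induced by FGF, by 1.69. Cdh2, the N-cadherin gene, had a difference of -1.62 ± 0.60, adjusted p = 0.0779, with EpiSC at 4.87 and 6.16 and epiblast at 7.09 and 7.18, and Zic5 (-1.32) and Fgf15 (-1.16) also did not pass.

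**Figure D2:**
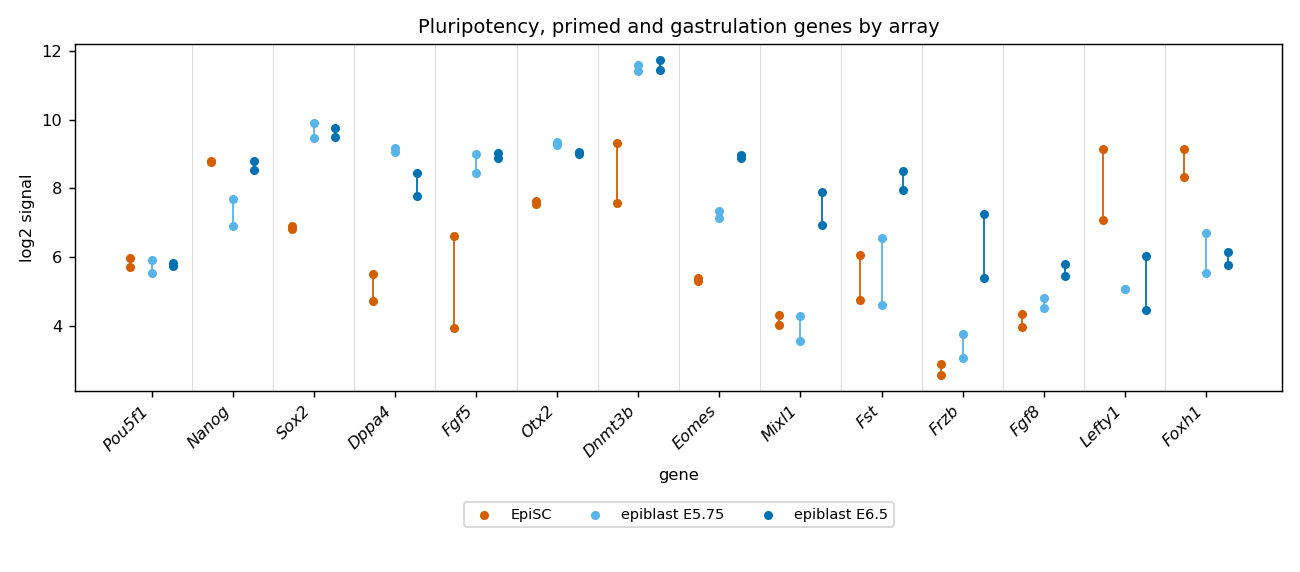
Log2 signal (y axis) of 14 pluripotency, primed and gastrulation genes (x axis) on the 2 arrays each of EpiSC (orange), epiblast E5.75 (light blue) and epiblast E6.5 (dark blue), with a line joining the 2 arrays of a group. Sox2, Dppa4, Otx2 and Dnmt3b are low in EpiSC against both tissue stages, whereas Mixl1, Frzb and Fgf8 in EpiSC lie nearer to epiblast E5.75.

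Genes with which gastrulation starts were a group in which EpiSC stood further from epiblast E6.5 than from epiblast E5.75 by root mean square, but not by median. Over the 36 measured genes of the primitive streak and mesoderm, the root mean square difference of EpiSC was 1.21 from epiblast E6.5 and 0.70 from epiblast E5.75, where the same measure over all autosomal genes was 0.871 and 0.909. The median difference of EpiSC over the list was -0.19 from epiblast E6.5 and -0.22 from epiblast E5.75, without that order. The order by root mean square is not particular to this list. Other lists went either way, such as Wnt ligands and antagonists at 0.78 and 0.45, p53 targets at 2.71 and 2.42 and core pluripotency genes at 1.59 and 2.33. In the comparison with epiblast E6.5, 2 rose, 8 fell and 26 did not pass, with a median of -0.19. The share that passed was 27.8% beside 20.8% of all autosomal genes. In other fits, 1 rose and 5 fell without EpiSC array 1. Eomes, a T-box factor required for mesoderm to leave the streak and for endoderm, was at 8.88 and 8.97 in epiblast E6.5, at 7.14 and 7.35 in epiblast E5.75 and at 5.31 and 5.40 in EpiSC. The groups were in that order with no overlap, and EpiSC differed from epiblast E6.5 by -3.57 ± 0.26, adjusted p = 1.29e-05, whereas the stage difference did not pass (1.68 ± 0.26, adjusted p = 0.0748). Mixl1, a homeobox gene switched on in the nascent streak, was at 6.95 and 7.88 in epiblast E6.5, at 4.28 and 3.56 in epiblast E5.75 and at 4.03 and 4.32 in EpiSC. EpiSC and epiblast E5.75 overlapped while epiblast E6.5 was higher than both. The difference of EpiSC from epiblast E6.5 was -3.24 ± 0.37, adjusted p = 0.000166, and Mixl1 was among the 5 genes that passed between the stages (3.49 ± 0.37, adjusted p = 0.0128, not passed without epiblast E6.5 array 2).

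Other streak genes were also highest in epiblast E6.5. Fst, which codes for follistatin, an Activin-binding protein, was at 7.95 and 8.51 in epiblast E6.5, 4.6 and 6.56 in epiblast E5.75 and 4.76 and 6.07 in EpiSC. It fell by 2.81 (not passed without EpiSC array 1). Fgf8, the FGF of the streak that moves mesoderm cells away from it, was at 5.46 and 5.79, 4.80 and 4.53 and 4.35 and 3.96 in the same groups, a fall of 1.47 from epiblast E6.5. Gata6, a factor of endoderm and early mesoderm, fell by 1.67 (not passed without EpiSC array 2 or epiblast array 1 or 2). Lhx1 (-1.23), Sp5 (-0.99 (not passed without EpiSC array 1 or epiblast array 1 or 2)) and Mesp1 (-0.87 (not passed with any 1 array left out or after quantile normalization)), which were named after their values were seen, complete the members that fell. Mesp1 marks the first cardiac mesoderm, and the other markers of nascent mesoderm did not pass: Tbx6 (0.29), Hand1 (0.22), Msgn1 (0.07) and Kdr (0.19), and their epiblast E6.5 arrays were at or below the array median. The members that rose were Foxc1, a forkhead gene of paraxial mesoderm, by 1.89, and Dll1, a Notch ligand, by 1.35 (not passed without EpiSC array 1 or epiblast array 1 or 2). Wnt3, the Wnt ligand that the streak requires, was at 5.80 and 4.49 in EpiSC and 4.02 and 4.11 in epiblast E6.5 and did not pass (1.08 ± 0.38, adjusted p = 0.0657). Snai2 (1.12) and Pdgfra (-1.08), which marks mesoderm, did not pass either. Except for Mixl1, the stage difference of these genes did not pass, so their order over the stages is a description.

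Endoderm and node genes passed at about the share of all genes, 18.8% beside 20.8%. Of 16 members 3 rose, 0 fell and 13 did not pass, with a median of -0.07. For this list, 1 rose and 1 fell without epiblast array 2. The members that rose were Krt19, a keratin, by 2.29, Trh, which codes for thyrotropin-releasing hormone, by 2.51 (not passed without EpiSC array 2 or epiblast array 1 or 2 or after quantile normalization) and Foxj1, a factor of ciliated cells, by 1.23 (not passed without EpiSC array 1 or epiblast array 2). Foxa2 (-0.10), Gsc (-0.74) and Cer1 (-0.19), genes of the anterior streak and its endoderm, did not pass. Among anterior and neural ectoderm genes 8.33% passed: of 24 members 2 rose, 0 fell and 22 did not pass, with a median of -0.13. Sox1, the earliest specific neural factor, was at 5.55 and 6.03 in EpiSC, 4.18 and 4.27 in epiblast E6.5 and 7.68 and 8.17 in rsEpiSC E6.5, so that both lines were above the tissue. It rose by 1.56 in EpiSC. Nes, which codes for the intermediate filament nestin, rose by 1.17 (not passed without EpiSC array 2 or epiblast array 1 or after quantile normalization). Tubb3 (-1.37), Hesx1 (-1.09) and Ncam1 (1.21) did not pass. Against rsEpiSC E6.5, 10 of the 24 neural members were lower in EpiSC and 0 were higher, where 1.29% of all autosomal genes were lower.

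Several ligands, receptors and transducers of Nodal signalling, the pathway that the Activin A of EpiSC medium also feeds, differed. Of 22 members 7 rose, 2 fell and 13 did not pass, so that 40.9% passed beside 20.8% of all autosomal genes. With the same test, 6 rose and 0 fell without EpiSC array 1, 3 rose and 2 fell without EpiSC array 2 and 4 rose and 1 fell without epiblast array 2. Nodal itself was at 6.00 and 6.46 in EpiSC and 6.16 and 4.87 in epiblast and did not pass (0.72 ± 0.56, adjusted p = 0.393). The Nodal antagonist Lefty1 was at 7.09 and 9.14 against 6.02 and 4.46, with both EpiSC arrays higher but a wide spread within each group, and rose by 2.88 (not passed without EpiSC array 2 or epiblast array 2). Foxh1, the DNA-binding partner of SMAD2 and SMAD3, was at 9.16 and 8.34 against 6.16 and 5.76. Its groups were well apart, and it rose by 2.79. Smad3 rose by 1.45 and Tgfb1, a ligand of the related TGF-beta receptors, by 2.51. Acvr2b (0.69), an Activin receptor, Smad2 (-0.12) and Smad4 (-0.17) did not pass.

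Targets of Nodal signalling did not move in one direction. Of 14 members 5 rose, 3 fell and 6 did not pass, with a median of 0.52. Of these, 0 rose and 2 fell without EpiSC array 2, 2 rose and 2 fell without epiblast array 1, 1 rose and 3 fell without epiblast array 2 and 2 rose and 4 fell after quantile normalization. The list holds Eomes and Mixl1, which fell, beside Lefty1 and Tdgf1, which rose. Rgmb, a BMP co-receptor, rose by 1.17 (not passed without EpiSC array 1 or 2 or epiblast array 2 or after quantile normalization) and Ldlrad4, an inhibitor of the receptor-SMAD step, by 1.15 (not passed without EpiSC array 2 or epiblast array 1 or 2). Lefty2 (-0.74), Pmepa1 (0.66) and Smad7 (0.38), the last 2 being feedback inhibitors, did not pass.

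In the FGF and ERK pathway, 8 rose, 3 fell and 18 did not pass of 29 members. The list had a median of 0.12, and 37.9% of it passed beside 20.8% of all autosomal genes. Among its members, 9 rose and 5 fell without EpiSC array 2 and 7 rose and 5 fell after quantile normalization. Myc, the growth-promoting transcription factor, was at 5.32 and 6.95 in EpiSC against 8.68 and 7.97, a fall of 2.19 (not passed without EpiSC array 1 or epiblast array 1). Phlda1, induced by many growth signals, was at 7.56 and 8.55 against 5.74 and 4.76, and rose by 2.80. Dusp5, a phosphatase that acts on nuclear ERK, rose by 1.82, the immediate early gene Ier3 by 2.12 and Egr1 by 2.06 (not passed without EpiSC array 1 or epiblast array 2). The feedback genes Dusp6 (-1.54) and Spry2 (-1.10) did not pass, nor did Fos (1.41), so members that ERK induces were found in all 3 classes.

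Wnt target genes were divided in the same way. Of 19 members 2 rose, 4 fell and 13 did not pass. The median was 0.10, and 31.6% passed beside 20.8% of all autosomal genes. In other fits, 2 rose and 1 fell without EpiSC array 1, 1 rose and 1 fell without epiblast array 1 and 3 rose and 2 fell without epiblast array 2. Axin2, the feedback inhibitor most used to read this pathway, was at 5.33 and 5.10 in EpiSC and 6.03 and 6.28 in epiblast E6.5. Both EpiSC arrays were lower, and it fell by 0.94 (not passed with any 1 array left out), with an adjusted p of 0.0468. Kremen1, a receptor for Dkk proteins, was at 6.75 and 6.72 against 4.14 and 4.69 and rose by 2.32. Rnf43, a ligase that removes Wnt receptors, rose by 1.43 (not passed without EpiSC array 1 or epiblast array 1). Nkd1 (0.80), Znrf3 (-0.45) and Cdx1 (-0.20) did not pass.

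Among 33 Wnt ligands and antagonists 1 rose, 1 fell and 31 did not pass, beside 20.8% of all genes that passed. Frzb, a secreted Wnt antagonist, was at 2.90 and 2.57 in EpiSC, 5.38 and 7.27 in epiblast E6.5, 3.76 and 3.05 in epiblast E5.75 and 6.16 and 6.56 in rsEpiSC E6.5. EpiSC were lower than all the others, and the difference from epiblast E6.5 was -3.59 ± 0.48, adjusted p = 0.000484. Wnt6 rose by 1.13 (not passed with any 1 array left out). Wnt9b (0.90), Rspo3 (-0.86), an amplifier of Wnt signals, and Wnt5a (-0.55) did not pass. In the BMP pathway 1 rose, 1 fell and 26 did not pass of 28 members, with a median of -0.13. The share that passed was 7.14% beside 20.8% of all autosomal genes. Bmp7 rose by 1.39 (not passed without EpiSC array 1), the receptor gene Bmpr1b fell by 0.86 (not passed without EpiSC array 1 or 2 or epiblast array 2 or after quantile normalization), and Bmp4 (0.67), Id3 (-1.05) and Smad5 (-0.62) did not pass.

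Markers of other cell types that either sample could hold are given by list, with their level in both groups. Of the 7 defining visceral endoderm markers, none passed: Afp was at 3.60 and 3.58 in EpiSC and 4.13 and 3.64 in epiblast E6.5, Ttr at 3.84 and 3.98 and 4.03 and 5.05, and Apoa1 at 4.55 and 4.57 and 4.84 and 4.09, and Rbp4 (0.65), Amn (0.81), Cubn (-0.51) and Hnf4a (-0.23) did not pass. The mean of the whole list of 26 genes was 4.53 and 4.36 on the EpiSC arrays and 4.96 and 4.79 on the epiblast arrays. In it 2 rose, 5 fell and 19 did not pass, so that 26.9% passed beside 20.8% of all autosomal genes. For this list, 1 rose and 3 fell without EpiSC array 1, 2 rose and 2 fell without EpiSC array 2, 2 rose and 2 fell without epiblast array 1 and 3 rose and 3 fell after quantile normalization. The members that fell furthest were Car4, a carbonic anhydrase, and Spink1, a protease inhibitor. Car4 was at 4.94 and 4.48 in EpiSC, 10.06 and 10.38 in epiblast E6.5, 9.49 and 10.28 in epiblast E5.75 and 9.68 and 9.45 in rsEpiSC E6.5, and the difference from epiblast E6.5 was -5.51 ± 0.37, adjusted p = 8.04e-06. It was thus low in EpiSC alone among these 4 groups. Spink1 fell by 3.33, from 7.09 and 7.03. Lrp2, which codes for megalin, rose by 1.67 (not passed without epiblast array 2), and Apoe by 1.30 (not passed without EpiSC array 1 or epiblast array 2), while the fibrinogen gene Fga fell by 1.22 (not passed without EpiSC array 1 or 2 or epiblast array 1 or after quantile normalization).

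Of 20 genes of the extraembryonic ectoderm and trophoblast 6 rose, 2 fell and 12 did not pass, with list means of 5.56 and 5.71 in EpiSC and 5.14 and 5.08 in the tissue. Elf5, a defining trophoblast factor, was at 2.96 and 2.97 in EpiSC and 4.97 and 3.39 in the tissue, where array 1 stood above array 2, and fell by 1.22 (not passed without EpiSC array 1 or 2 or epiblast array 1 or after quantile normalization). Cdx2 (-0.25), Ascl2 (0.69) and Gata3 (0.07) did not pass. The members that rose are expressed in other tissues as well: the claudin gene Cldn4 by 3.75, the keratins Krt8 by 3.36 and Krt18 by 3.05, the FGF receptor Fgfr2 by 1.64, and Tead4, the DNA-binding partner of YAP, by 1.57. In the blood list 1 rose, 1 fell and 7 did not pass of 9 members, so that 22.2% passed beside 20.8% of all autosomal genes. Hba-x (-0.37), Hbb-bh1 (-0.88) and Hbb-y (-0.49), the embryonic globins, were below the array median on all 4 arrays. Klf1, an erythroid factor, fell by 1.00 (not passed without EpiSC array 2 or epiblast array 1 or 2 or after quantile normalization), and Car2, a carbonic anhydrase of red and other cells, rose by 1.57 (not passed without EpiSC array 2 or epiblast array 1 or 2).

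Fibroblasts were the feeder layer of EpiSC, and some of their genes were higher in EpiSC. The mean of the 26 fibroblast genes was 5.43 and 5.64 on the EpiSC arrays against 4.69 and 4.62 on the epiblast arrays, and 9 rose, 1 fell and 16 did not pass, with a median of 0.44. Of the defining collagens, Col1a1 was at 5.31 and 6.67 in EpiSC and 4.70 and 4.55 in the tissue, and Col1a2 at 6.29 and 9.02 and 4.56 and 5.13. In both, EpiSC array 2 was higher than EpiSC array 1, and the rises were 1.37 (not passed without EpiSC array 2 or epiblast array 1 or 2) and 2.81 (not passed without epiblast array 1). Col3a1 was at 4.63 and 5.13 against 4.61 and 4.01, Postn at 2.93 and 4.08 against 2.49 and 2.96, and neither passed (0.58 and 0.78). Dcn, which codes for decorin, fell by 1.41 (not passed without EpiSC array 2 or epiblast array 2), and Lum (-0.19) and Thy1 (0.31) did not pass. The remaining members with large rises, Tagln (4.77), Thbs1 (4.35), Acta2 (3.13), Sparc (2.07) and Mmp2 (2.09 (not passed without EpiSC array 1)), are made by many adherent cells and stand in the cytoskeleton and matrix lists as well. What part feeder RNA has in them was not tested.

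The genes of contact with a substrate, of the actin cytoskeleton and of simple epithelia were among the lists in which the largest shares of members rose. Of 29 genes of the actin cytoskeleton and targets of the transcription factors YAP and SRF, 25 rose, 0 fell and 4 did not pass, with a median of 1.69 beside -0.13 over all autosomal genes. Ccn1, a secreted matrix protein and YAP target, was at 10.46 and 9.74 in EpiSC and 5.0 and 4.86 in epiblast E6.5, and Ccn2, of the same family, rose by 3.17. The groups of Ccn1 were apart by more than 4 log2 units, and the difference was 5.17 ± 0.41, adjusted p = 1.94e-05. Tagln, the actin-binding protein SM22 and an SRF target, was at 8.94 and 9.44 against 4.63 and 4.21, with a difference of 4.77 ± 0.34, adjusted p = 1.22e-05. Thbs1, which codes for the matrix protein thrombospondin, was at 8.20 and 8.68 against 4.28 and 3.91, with a difference of 4.35 ± 0.37, adjusted p = 3.35e-05. Epiblast E5.75 was also below EpiSC for all 3 genes, with 5.22 and 5.75, 5.75 and 4.88 and 3.84 and 4.05. For Ccn1 and Tagln its arrays lay above those of epiblast E6.5. Ahnak, a large scaffold protein, rose by 3.96, and the calponins Cnn2 and Cnn1 by 3.81 and 3.54. Vcl, which codes for vinculin, the link from focal adhesions to actin, was at 8.96 and 9.51 against 7.61 and 7.59 and rose by 1.64. The members that did not pass were Amotl1 (0.93), Tpm4 (-0.50), Actn4 (0.49) and Actg2 (0.48).

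SRF binds the CArG box, and a search for it was made in windows from 250 bases before to 50 after each gene's start, on both strands, in RefSeq sequence of GRCm38.p6. A match was found in 3 of the 25 list members with such a window, Cnn2, Myl9 and Vcl, against 1.81% of 27025 genes. All 3 rose, as did 22 of the 25. The list was drawn up to hold SRF targets, so a share above that of all genes is no support for a role of SRF. The promoters of Cnn2 (chr10:79988350-79988649, plus strand) and Vcl (chr14:20929148-20929447, plus strand) are shown because both genes rose, with the box in capitals, 5′ to 3′ in the direction of the gene.
Cnn2: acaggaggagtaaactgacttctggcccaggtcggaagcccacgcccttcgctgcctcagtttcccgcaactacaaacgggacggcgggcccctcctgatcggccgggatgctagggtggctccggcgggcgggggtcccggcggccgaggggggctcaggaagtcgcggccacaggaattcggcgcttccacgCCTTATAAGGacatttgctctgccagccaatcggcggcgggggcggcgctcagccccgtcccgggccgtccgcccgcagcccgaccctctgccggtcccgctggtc
Vcl: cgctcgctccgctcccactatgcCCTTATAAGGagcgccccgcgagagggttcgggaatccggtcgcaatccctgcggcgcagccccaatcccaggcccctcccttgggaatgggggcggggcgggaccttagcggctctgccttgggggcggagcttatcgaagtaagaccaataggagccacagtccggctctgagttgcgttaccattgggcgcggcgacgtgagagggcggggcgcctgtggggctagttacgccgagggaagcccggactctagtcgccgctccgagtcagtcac
The match lies nearer to the gene start in Cnn2 than in Vcl, and is a description of the letters, not a measured site. The motif was chosen after the values were seen.

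Of 25 keratins, S100 proteins, galectins and annexins 15 rose, 0 fell and 10 did not pass, with a median of 2.29. Anxa3, an annexin, which binds membranes in a calcium-dependent way, was at 9.11 and 9.54 in EpiSC against 3.46 and 3.51, with a difference of 5.84 ± 0.55, adjusted p = 5.98e-05, from tissue arrays that were below the array median. Anxa5 rose by 4.37 from 5.79 and 5.25 and Anxa1 by 4.16 from 3.35 and 3.19. The calcium-binding S100a6 was at 11.67 and 12.23 against 7.71 and 7.86, a rise of 4.16, and S100a10, the partner of annexin A2, rose by 3.64. Lgals1, which codes for galectin 1, rose by 3.83. The simple-epithelium keratins named above, Krt8 at 8.63 and 9.80 against 5.71 and 6.00 and Krt18 at 11.13 and 11.28 against 8.37 and 7.93, were higher on every EpiSC array. Keratins of stratified epithelia were not: Krt14 had a difference of -0.43 and Krt17 of -1.46, and Krt7 (-0.33), of simple ducts, did not pass.

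The basement membrane list, whose products the embryonic epiblast rests on, had 12 of 16 members higher and 0 lower, with a median of 1.39. Nid1, which codes for nidogen, the linker of laminin and collagen IV, was at 8.62 and 9.42 in EpiSC and 3.84 and 3.46 in epiblast E6.5, a difference of 5.37 ± 0.48, adjusted p = 5.07e-05. The tissue arrays were below the array median for this gene. The heparan sulphate proteoglycan gene Hspg2 rose by 2.17, Lama5 and Lamb1, which code for laminin chains, by 2.05 and 1.69, and Frem2 by 1.66 (not passed with any 1 array left out or after quantile normalization). The collagen IV genes Col4a1 (0.44) and Col4a2 (0.58) and the laminin gene Lama1 (0.05) did not pass. Among 21 integrins and focal adhesion genes 11 rose, 1 fell and 9 did not pass. The integrins of fibronectin and laminin, Itga5 and Itga3, rose by 1.91 (not passed without epiblast array 2) and 2.19, the tetraspanins Cd81, Cd9 and Cd63 by 2.65, 2.59 and 2.19, and the actin linker Parva by 2.43. Itgb4 (1.16), Itga4 (-0.61) and Itga6 (0.40) did not pass.

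The most used markers of an epithelium did not pass. Cdh1, which codes for E-cadherin, was at 10.53 and 10.73 in EpiSC and 9.50 and 9.16 in epiblast and did not pass (1.30 ± 0.82, adjusted p = 0.288). Epcam was at 9.60 and 9.43 against 8.87 and 9.19, likewise not passed (0.49 ± 0.53, adjusted p = 0.549). For both genes both EpiSC arrays were above both tissue arrays. The standard error rests on the spread in all 6 groups of the fit, so not passing does not mean equal levels. Of 23 cadherins and genes of the epithelial-mesenchymal transition 6 rose, 1 fell and 16 did not pass. The share that passed was 30.4% beside 20.8% of all autosomal genes. With the same test, 3 rose and 0 fell without EpiSC array 1. Vim, which codes for the intermediate filament vimentin of mesenchymal and cultured cells, was at 10.54 and 11.02 against 7.27 and 7.36, a rise of 3.46. Cdh3, P-cadherin, rose by 2.65, the junction protein gene Jup by 1.74, and Crb3, a polarity protein gene of the apical membrane, by 2.06 (not passed without EpiSC array 1 or epiblast array 1). Zeb1, a repressor of E-cadherin, rose by 1.04 (not passed with any 1 array left out). Of 19 tight junction genes, of which 42.1% passed beside 20.8% of all autosomal genes, 6 rose, 2 fell and 11 did not pass. Of these, 2 rose and 0 fell without EpiSC array 1, 4 rose and 0 fell without epiblast array 1 and 4 rose and 0 fell without epiblast array 2. Cldn4 was at 9.23 and 8.36 against 4.83 and 5.25, with a difference of 3.75 ± 0.39, adjusted p = 0.000109, and Cldn3 rose by 2.99. F11r, an adhesion molecule of the junction, rose by 2.05 (not passed without EpiSC array 1 or epiblast array 2) and Tjp3 by 1.63 (not passed without EpiSC array 1 or epiblast array 1 or after quantile normalization), while Cldn7 fell by 1.71 (not passed with any 1 array left out). Cldn6 (0.94), Ocln (0.30) and Pard3 (0.15) did not pass.

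**Figure D3:**
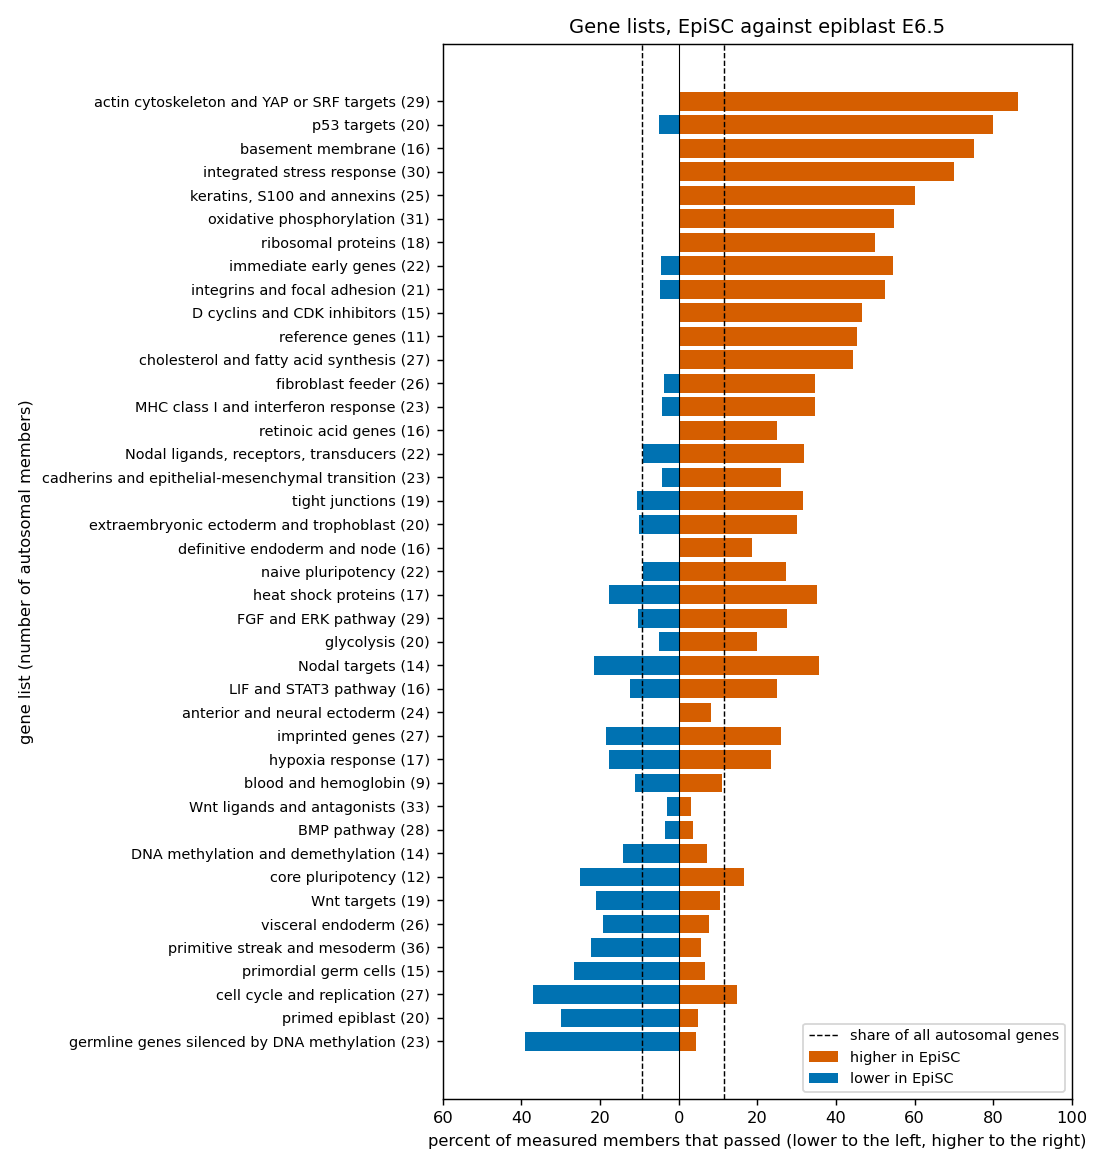
Share of the measured members of each of 41 gene lists (y axis, with the number of members) that passed higher (orange, to the right) or lower (blue, to the left) in EpiSC, in percent (x axis). Dashed lines mark the shares over all autosomal genes, 11.4% higher and 9.35% lower; lists share some members, and no test was made of any list.

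Targets of the transcription factor p53 were high in EpiSC. Of 20 members 16 rose, 1 fell and 3 did not pass, with a median of 1.95. Cdkn1a, the inhibitor p21 of cyclin-dependent kinases and the best known target, was at 11.05 and 10.86 in EpiSC, 6.09 and 5.92 in epiblast E6.5 and 5.25 and 6.96 in epiblast E5.75. EpiSC were above every tissue array, with a difference of 4.94 ± 0.47, adjusted p = 5.93e-05. Trp53inp1, a stress protein gene, was at 9.43 and 8.84 against 4.98 and 5.03, a rise of 4.13, and the kinase gene Plk2 rose by 3.95. The antiproliferative gene Btg2 rose by 3.81 and the death receptor gene Tnfrsf10b by 3.54. The exception was Pmaip1, the death-promoting BH3 protein Noxa, which was at 4.71 and 3.69 against 7.42 and 7.92 and fell by 3.46. Bbc3, which codes for the BH3 protein Puma, did not pass (1.07 ± 0.38, adjusted p = 0.0671), nor did Rrm2b (0.22) and Sesn1 (0.11). On the other cultured arrays Cdkn1a was at 10.98 and 10.82 in ESC and 8.28 and 9.41 in rsEpiSC E6.5, likewise above the tissue.

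Cyclin D genes and inhibitors of their kinases had 7 of 15 members higher and 0 lower, with a median of 1.35. Among its members, 7 rose and 2 fell after quantile normalization. Besides Cdkn1a, the rises were Ccnd2 by 2.71, the kinase genes Cdk6 by 2.45 and Cdk4 by 1.68, and the inhibitor genes Cdkn2d by 1.60 and Cdkn2b by 1.38 (not passed without EpiSC array 2). Ccnd1 (1.44), Cdkn1b (1.06) and Cdkn1c (-0.95) did not pass. In the list of cell cycle and replication genes 4 rose, 10 fell and 13 did not pass of 27 members, with a median of -0.41. In other fits, 3 rose and 2 fell without EpiSC array 1, 2 rose and 10 fell without EpiSC array 2, 3 rose and 5 fell without epiblast array 1 and 2 rose and 6 fell without epiblast array 2. Mki67, the proliferation antigen, was at 8.43 and 8.35 in EpiSC against 9.83 and 9.54, and fell by 1.30 (not passed without epiblast array 1). The replication licensing factor Cdc6 fell by 1.40 (not passed without EpiSC array 1 or epiblast array 1) and the mitotic motors Kif11 and Cenpe by 1.24 (not passed without EpiSC array 1) and 1.27 (not passed without EpiSC array 1), whereas Cdt1, also a licensing factor, rose by 1.76 (not passed without EpiSC array 2) and Cenpa, the centromeric histone, by 1.83 (not passed without EpiSC array 1 or epiblast array 2). Ccne1 (-1.24), Birc5 (0.88) and Mcm5 (0.00) did not pass.

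Growth factors and handling of cells can induce immediate early genes within minutes, and what part either has here was not tested. Of 22 members of this list 12 rose, 1 fell and 9 did not pass, with a median of 1.30. Gadd45b, a stress sensor, was at 11.07 and 9.28 in EpiSC and 4.99 and 4.84 in epiblast, with a difference of 5.26 ± 0.55, adjusted p = 0.000106. The RNA-decay factor gene Zfp36 was at 9.39 and 8.49 against 5.83 and 5.53 and rose by 3.26, and Jun, a subunit of AP-1, rose by 2.52. EpiSC array 1 was the higher of the pair for Gadd45b, Btg2, Zfp36 and Jun. Ier2 (1.20), Srf (1.18) and Fosb (0.42) did not pass. Heat shock genes were divided, with 6 of 17 higher and 3 lower, so that 52.9% passed beside 20.8% of all autosomal genes. For this list, 5 rose and 1 fell without EpiSC array 1, 5 rose and 1 fell without epiblast array 1 and 5 rose and 1 fell without epiblast array 2. The small heat shock protein gene Cryab, alpha-B crystallin, was at 10.45 and 11.36 in EpiSC against 4.01 and 4.53, with a fitted difference of 6.63 ± 0.47, adjusted p = 1.22e-05. Both tissue arrays were below their array medians, 4.64 and 4.58, and a difference from so dim a signal is best read as a lower limit. Hspb1, which codes for a protein of the same family, rose by 2.94 and Hspb8 by 2.83, their co-chaperone gene Bag3 by 1.63 and Hspa2 by 1.46. The inducible Hspa1b fell by 2.51, from 6.37 and 6.52, while Hspa1a (-0.10), Hspa8 (-0.24) and Dnajb1 (0.01) did not pass.

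Of 30 genes of the integrated stress response, the programme of amino acid supply that the factor ATF4 drives, 21 rose, 0 fell and 9 did not pass, with a median of 1.46. Ddit4, an inhibitor of mTORC1, was at 7.81 and 8.09 in EpiSC and 3.75 and 5.06 in epiblast, a difference of 3.55 ± 0.37, adjusted p = 0.000103. Ddit3, the factor CHOP, was at 10.03 and 7.79 against 5.45 and 5.91 and rose by 3.23, with the EpiSC arrays unlike each other. The amino acid transporter gene Slc7a5 was at 11.40 and 10.91 against 8.41 and 8.33 and rose by 2.78. The serine enzyme gene Shmt2 rose by 2.82, Sesn2, an inhibitor of growth signalling, by 2.67, and Chac1, which degrades glutathione, by 2.57 (not passed without EpiSC array 2 or epiblast array 1). Vldlr (0.94), Phgdh (-0.36) and Mthfd2 (0.58) did not pass. In the comparison of EpiSC with rsEpiSC E6.5, 0 of these members passed higher and 0 lower, and the median of rsEpiSC E6.5 minus epiblast E6.5 was 1.06.

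ATF4 binds with C/EBP factors at the letters TGATGNAA, and these were searched on both strands in the same windows. They occurred in 10 of the 25 members with a window, of which 7 were among the 18 that rose, against 4.51% of 27025 genes. The list was drawn up as genes that ATF4 drives, so a share above that of all genes is no support for a role of ATF4. The members with a match that rose were Asns, Chac1, Gars, Nupr1, Slc7a11, Trib3 and Yars. The promoters of Asns (chr6:7693160-7693459, minus strand), the asparagine synthetase gene that rose by 2.27, of Chac1 (chr2:119350992-119351291, plus strand) and of Trib3 (chr2:152344011-152344310, minus strand), an inhibitor of ATF4 itself that rose by 2.39, are printed to show the match, in capitals, 5′ to 3′ in the direction of the gene, from RefSeq, GRCm38.p6.
Asns: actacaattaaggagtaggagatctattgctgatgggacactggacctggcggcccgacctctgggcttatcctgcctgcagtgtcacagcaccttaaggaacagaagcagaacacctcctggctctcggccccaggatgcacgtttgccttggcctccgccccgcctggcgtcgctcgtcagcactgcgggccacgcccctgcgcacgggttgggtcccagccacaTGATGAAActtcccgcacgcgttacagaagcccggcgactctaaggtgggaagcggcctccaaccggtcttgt
Chac1: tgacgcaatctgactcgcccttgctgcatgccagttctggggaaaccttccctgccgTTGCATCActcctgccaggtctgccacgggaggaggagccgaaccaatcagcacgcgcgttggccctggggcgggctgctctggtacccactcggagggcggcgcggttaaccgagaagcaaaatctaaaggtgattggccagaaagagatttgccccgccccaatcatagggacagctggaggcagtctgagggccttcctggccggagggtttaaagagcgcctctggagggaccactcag
Trib3: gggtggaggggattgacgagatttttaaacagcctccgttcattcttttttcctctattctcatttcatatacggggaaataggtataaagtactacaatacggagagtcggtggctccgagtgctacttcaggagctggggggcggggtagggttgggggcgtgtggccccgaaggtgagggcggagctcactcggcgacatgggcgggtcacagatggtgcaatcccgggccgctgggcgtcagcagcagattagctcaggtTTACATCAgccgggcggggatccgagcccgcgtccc
Asns holds the letters in the forward direction, and Chac1 and Trib3 hold them on the opposite strand. The search was added after the values were seen, and a match is not a measured binding site. The same windows were searched for TCACNCCAC, which SREBP factors bind in genes of cholesterol synthesis, and 1 of 21 members with a window held it, Hmgcs1, against 1.44% of genes. Hmgcs1 did not pass (0.46).

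Of 27 cholesterol and fatty acid synthesis genes 12 rose, 0 fell and 15 did not pass, with a median of 0.94. Insig1, the sterol-regulated anchor of the SREBP complex, was at 10.27 and 8.27 against 6.18 and 6.63, a rise of 2.87. Srebf2, which codes for the factor itself, was at 9.46 and 8.85 against 6.52 and 6.52, with no overlap, and rose by 2.64. The enzyme genes Msmo1, Fdps, Mvd and Dhcr7 rose by 2.26, 2.13, 1.94 and 1.89. Sqle (0.39), Scd1 (1.27) and Fasn (0.12) did not pass. The median of the list in rsEpiSC E6.5 minus epiblast E6.5 was 1.60, above that of EpiSC.

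Of 31 genes of oxidative phosphorylation 17 rose, 0 fell and 14 did not pass, with a median of 0.70. With the same test, 11 rose and 0 fell without epiblast array 1. Cox4i1, a subunit of cytochrome oxidase, was at 11.64 and 11.61 in EpiSC against 8.60 and 9.25, a difference of 2.70 ± 0.31, adjusted p = 0.000199. The ATP synthase subunit gene Atp5d rose by 3.02, the complex II genes Sdhc and Sdhd by 2.24 and 1.65, the complex III gene Uqcrc1 by 2.23 and the complex I gene Ndufv1 by 1.65. Sdha (0.42), Cycs (-0.20) and Ndufs1 (-0.11) did not pass. Ribosomal proteins, genes of high signal in every cell, had 9 of 18 higher and 0 lower, with a median of 0.39. Of these, 5 rose and 0 fell without EpiSC array 1. Rpl32 rose by 2.06, Rpl10a by 1.63 and Rps3 by 1.33, and Rpl4 (0.11), Rpl5 (-0.72) and Rps6 (0.22) did not pass.

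Of 20 glycolysis genes 4 rose, 1 fell and 15 did not pass, with a median of 0.53. The share that passed, 25%, was near the 20.8% of all autosomal genes. The glucose transporter gene Slc2a3 was at 10.03 and 10.10 against 7.69 and 6.99 and rose by 2.72, Pfkm, a phosphofructokinase gene, rose by 2.66 and Eno2 by 2.17, and Ldha fell by 1.23 (not passed without EpiSC array 1 or 2 or epiblast array 1). Slc2a1 (0.82), Pkm (0.33) and Hk1 (0.65) did not pass. Genes of the hypoxia response were divided, at 4 higher and 3 lower of 17. The list passed at 41.2% beside 20.8% of all autosomal genes. Among its members, 2 rose and 1 fell without EpiSC array 1, 4 rose and 1 fell without EpiSC array 2, 2 rose and 2 fell without epiblast array 1 and 3 rose and 1 fell without epiblast array 2. Vegfa, the vascular growth factor gene, rose by 1.98 (not passed without EpiSC array 1 or epiblast array 1) and Adm, adrenomedullin, by 1.57. Pdk1, which diverts pyruvate from mitochondria, was at 3.45 and 6.40 against 7.84 and 8.56 and fell by 3.27 (not passed without EpiSC array 1 or epiblast array 2), Bnip3 fell by 1.52 (not passed with any 1 array left out) and Mxi1 by 1.43 (not passed without EpiSC array 2 or epiblast array 2).

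**Figure D4:**
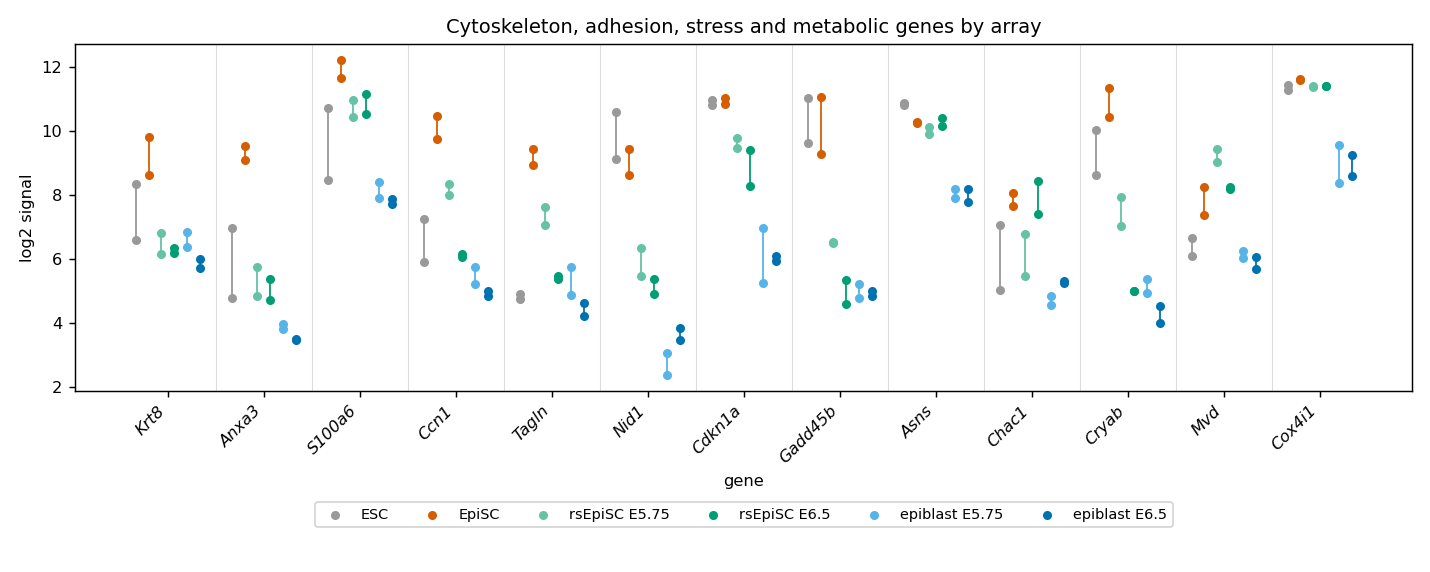
Log2 signal (y axis) of 13 genes of the cytoskeleton, matrix, stress responses and metabolism (x axis) on the 2 arrays of each of the 6 groups, with a line joining the arrays of a group. All 13 are higher in EpiSC (orange) than in epiblast E6.5 (dark blue); Asns, Mvd and Cox4i1 are also high in both rsEpiSC groups (green), while Krt8, Anxa3, Tagln and Nid1 in rsEpiSC E6.5 lie nearer to the tissue.

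Germline genes that DNA methylation silences in the post-implantation embryo included members that were lower in EpiSC. Of 23 members 1 rose, 9 fell and 13 did not pass, with a median of -0.56. The share that passed was 43.5% beside 20.8% of all autosomal genes, and 9.35% of all autosomal genes were lower. The list was not matched for signal, and the genes of the lowest signal bin had a median of -0.44. After quantile normalization 1 rose and 8 fell, and the median of the list was -0.31. Rpl10l, the testis paralogue of a ribosomal protein gene, was at 2.20 and 3.16 in EpiSC, 6.56 and 6.48 in epiblast E6.5 and 8.94 and 8.15 in epiblast E5.75, a difference of -3.84 ± 0.44, adjusted p = 0.000192 from epiblast E6.5. Ddx4, the germ cell helicase VASA, was at 3.80 and 3.28 in EpiSC against 6.06 and 6.34, with no overlap, and fell by 2.66. Mael, a factor of transposon silencing, fell by 2.21, Tex15 by 2.18 and Stk31 by 1.63 (not passed with any 1 array left out or after quantile normalization). The member that rose was Rec8, the meiotic cohesin subunit, at 7.28 and 6.46 against 4.14 and 4.04, by 2.78. Dazl (-0.99), Sycp1 (-0.53) and Piwil2 (0.09) did not pass. The median of the list between the tissue stages, epiblast E6.5 minus epiblast E5.75, was -0.50, and of EpiSC minus epiblast E5.75 it was -1.37; the comparisons share arrays, and the 3 groups follow in that order.

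Cyct, the testis form of cytochrome c, was at 3.18 and 2.84 in EpiSC, 8.52 and 8.88 in epiblast E6.5 and 9.50 and 9.35 in epiblast E5.75. Its difference was -5.69 ± 0.35, adjusted p = 4.93e-06 on the scale of the fit, and rsEpiSC E6.5 were as low as EpiSC, at 3.17 and 2.55. Both EpiSC arrays lay below their array medians, 4.62 and 4.61, so the size of this fall is likewise a lower limit. Among 15 genes of primordial germ cells 1 rose, 4 fell and 10 did not pass, so that 33.3% passed beside 20.8% of all autosomal genes. Dppa3, Ddx4 and Sox2, given above, were among those that fell, with Elavl2, an RNA-binding protein gene, by 0.90 (not passed without EpiSC array 1 or 2 or epiblast array 1). Ifitm3, the surface protein fragilis, rose by 3.66 from 8.60 and 8.19. Prdm1 (-0.56), Tfap2c (-0.44) and Prdm14 (0.37), the specification factors, did not pass. Of 14 enzymes and partners of DNA methylation 1 rose, 2 fell and 11 did not pass, so that 21.4% passed beside 20.8% of all autosomal genes. In other fits, 1 rose and 4 fell after quantile normalization. Beside Dnmt3b, the chromatin remodeller gene Hells fell by 1.65, from 10.18 and 10.15 to 8.07 and 8.96. Dnmt1 (-0.32), Dnmt3a (-0.69) and Tet1 (-0.71) did not pass.

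Imprinted genes, which are expressed from the allele of one parent, differed in both directions: 7 rose, 5 fell and 15 did not pass of 27 members. The share that passed was 44.4% beside 20.8% of all autosomal genes. For this list, 6 rose and 3 fell without EpiSC array 1 and 6 rose and 3 fell without epiblast array 2. Nnat, neuronatin, was at 3.81 and 4.84 in EpiSC, 8.71 and 9.23 in epiblast E6.5 and 9.58 and 7.04 in rsEpiSC E6.5, with a difference from the tissue of -4.65 ± 0.66, adjusted p = 0.000621. Slc38a4, an amino acid transporter gene, fell by 4.14 from 7.88 and 7.79. Higher in EpiSC were Phlda2, a growth restrainer of the placenta, by 3.72, and the neighbours Peg10 and Sgce by 3.48 and 2.90. Peg3 (0.81), Mest (0.51) and Ube3a (-0.60) did not pass.

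Several genes were lower in EpiSC in the imprinted Dlk1 to Dio3 region of chromosome 12, whose maternal allele makes the long RNAs Meg3 and Rian with many small RNAs. This region was chosen after the values were seen. Of its 55 measured genes, 10 were lower in EpiSC and 0 were higher in the limma fit, beside 9.35% lower of all autosomal genes. The median was -0.55, against 0.00 for the other 703 genes of chromosome 12, of which 56 were lower. These sets were not matched for signal, and the genes of the lowest signal bin had a median of -0.44. Rian was at 5.16 and 3.81 in EpiSC, 7.45 and 8.04 in epiblast E6.5, 8.08 and 8.02 in epiblast E5.75 and 9.38 and 9.06 in rsEpiSC E6.5, with a difference of -3.26 ± 0.38, adjusted p = 0.000204. Meg3 was at 5.56 and 5.30, 6.58 and 7.13, 6.55 and 6.80 and 7.99 and 7.78 in the same groups and fell by 1.42 (not passed without EpiSC array 1 or 2 or epiblast array 2). In both, EpiSC were the lowest of these 4 groups. The small nucleolar RNAs AF357355, at 2.20 and 1.70 against 7.99 and 8.08, and AF357425, at 2.85 and 2.91 against 7.11 and 8.20, fell by 6.08 and 4.78. The paternally expressed Dlk1 (0.37) and Dio3 (-0.07) did not pass. Against rsEpiSC E6.5, 6 of the 55 genes were lower in EpiSC, where 1.29% of all autosomal genes were lower. Probe sets of small RNAs on these arrays may also read longer transcripts of the region, which was not tested, and the genes are neighbours of 1 region and not independent.

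Antigen presentation, retinoic acid and LIF genes completed the lists. Of 23 genes of MHC class I and the interferon response 8 rose, 1 fell and 14 did not pass. The share that passed was 39.1% beside 20.8% of all autosomal genes. B2m, the light chain of MHC class I, was at 11.93 and 11.15 in EpiSC against 8.89 and 8.44 and rose by 2.87, Ly6e, a surface protein gene, by 2.96, the proteasome subunit gene Psmb9 by 2.68, and the peptide loading genes Tapbp and Tap1 by 2.36 and 2.28. The interferon-induced Isg15 (0.75), Ifit1 (-0.33) and the heavy chain gene H2-K1 (1.20) did not pass. Of 16 retinoic acid genes 4 rose, 0 fell and 12 did not pass, so that 25% passed beside 20.8% of all autosomal genes. The retinol dehydrogenase gene Rdh10 rose by 2.71 and Dhrs3, the enzyme that reverses its step, by 2.38. The binding protein gene Crabp2 rose by 1.20 (not passed without EpiSC array 1) and the receptor gene Rara by 0.85 (not passed with any 1 array left out or after quantile normalization). With the same test, 2 rose and 0 fell without EpiSC array 1. Aldh1a2 (-0.10), which makes retinoic acid, Cyp26a1 (0.18), which degrades it, and Rarg (0.05) did not pass.

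In the LIF and STAT3 pathway, which supports ESC but not EpiSC, 4 rose, 2 fell and 10 did not pass of 16. The share that passed was 37.5% beside 20.8% of all autosomal genes. The receptor gene Cntfr was at 8.60 and 8.61 against 4.55 and 5.83 and rose by 3.42, the kinase gene Jak2 rose by 2.85 and Lif by 1.31 (not passed without EpiSC array 2 or epiblast array 1 or 2 or after quantile normalization). Lifr, the receptor of LIF, was at 5.45 and 5.35 in EpiSC against 7.02 and 7.55 and fell by 1.89, and the feedback inhibitor gene Socs2 fell by 2.27. Its relative Socs3 (-0.41), Il6st (0.02), which codes for gp130, and Pim1 (1.13) did not pass.

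The 15 highest and 15 lowest genes of the comparison held further names outside these lists. Among the highest, Kcnma1, the large-conductance potassium channel gene, was at 9.05 and 8.95 in EpiSC against 4.42 and 3.77, and Cd151, a tetraspanin of integrin complexes, was at 9.70 and 9.93 against 5.13 and 5.39. The arrays within each group were close, and the differences were 4.90 ± 0.39, adjusted p = 1.94e-05, and 4.55 ± 0.25, adjusted p = 2.51e-06. Both were also high in rsEpiSC E6.5, at 8.37 and 9.32 and 8.38 and 8.59. Cd68, a lysosomal protein gene best known from macrophages, rose by 4.50, with EpiSC at 10.36 and 8.43, and Cd59a, a complement inhibitor gene, rose by 4.45. Sft2d2, a vesicle transport gene, rose by 4.34 and Got1l1 by 4.65, the latter with EpiSC arrays at 8.91 and 6.70.

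Among the lowest, Jakmip2 was at 3.79 and 4.10 in EpiSC, 8.25 and 8.03 in epiblast E6.5 and 7.44 and 7.66 in rsEpiSC E6.5. Only EpiSC were low among these 3 groups, and the difference from the tissue was -4.20 ± 0.30, adjusted p = 1.29e-05. Ina, an intermediate filament gene of neurons, was at 4.49 and 4.88 against 8.40 and 8.69, with a difference of -3.86 ± 0.29, adjusted p = 1.45e-05. Tmem223 fell by 4.10, Zfp992 by 4.69, the sorting nexin gene Snx7 by 3.66, the phospholipase gene Pla2g1b by 3.70 and Ctsc, which codes for cathepsin C, by 3.61. Pla2g1b was at 7.84 and 7.24 in epiblast E6.5, 9.17 and 9.10 in epiblast E5.75, 3.92 and 3.77 in EpiSC and 4.10 and 3.31 in rsEpiSC E6.5, so both lines were low.

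EpiSC and rsEpiSC E6.5, set against each other, differed in 829 autosomal genes (3.91%), of which 556 were higher in EpiSC (2.62%) and 273 lower (1.29%). The count was 319 without EpiSC array 1, 323 without rsEpiSC array 1 and 233 without rsEpiSC array 2. It equals the gap between the signed differences of both lines from epiblast E6.5, which share the tissue arrays, and says nothing of which line lies closer to the tissue where they stand on opposite sides of it. In the keratin, S100 and annexin list 11 of 25 were higher in EpiSC and 0 lower, and the medians from epiblast E6.5 were 2.29 in EpiSC and 0.13 in rsEpiSC E6.5. The corresponding counts were 14 of 29 for the actin list, with medians of 1.69 and 0.69, and 8 of 16 for the basement membrane list, with 1.39 and 0.47. For p53 targets they were 7 of 20, with 1.95 and 0.82. In oxidative phosphorylation 0 of 31 members were higher and 0 lower, with medians of 0.70 and 0.63. The primed list had 1 of 20 higher and 6 lower in EpiSC, with medians of -0.98 and 0.26, and the streak list 1 of 36 higher and 1 lower, with -0.19 and -0.16. Eomes and Mixl1 were as low in rsEpiSC E6.5 as in EpiSC, at 5.43 and 4.87 and 3.81 and 4.14.

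**Figure D5:**
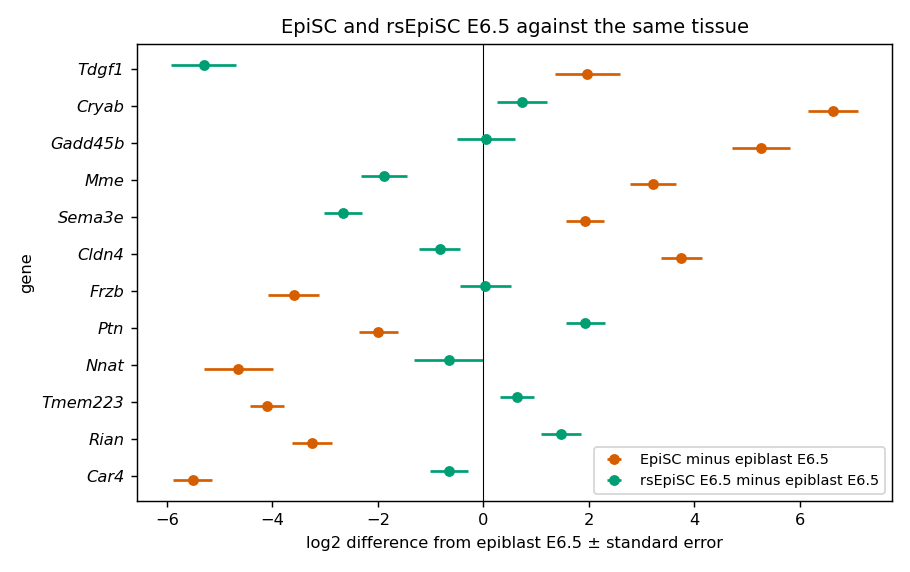
Log2 difference from epiblast E6.5 (x axis, ± standard error of the fit) of EpiSC (orange) and rsEpiSC E6.5 (green) for 12 genes (y axis). EpiSC lie from -5.51 (Car4) to 6.63 (Cryab); Tdgf1 and Mme are above the tissue in EpiSC and below it in rsEpiSC E6.5, and Rian and Ptn the other way round.

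By chromosome, the median difference of autosomal genes ran from -0.11 on chromosome 13 to 0.11 on chromosome 8, relative to the median of all autosomal genes. On single EpiSC arrays chromosome 13 was at -0.13 and -0.13 and chromosome 8 at 0.11 and 0.11. After quantile normalization chromosome 8 was at 0.03 and chromosome 13 at -0.11, and among genes above the median signal they were at 0.09 and -0.33. No test was made of chromosome medians.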

How the data were processed

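RNA of 12 samples in 6 groups of 2 was amplified, labelled and read on Affymetrix expression arrays, per the labels' protocols. The array named in that protocol is a human one, yet the probe set identifiers are those of a mouse platform table, from which they were named. The authors deposited log2 signal values of 41345 probe sets, which the submitters' processing notes trace to RMA in oligo; their versions and settings are not given in the sources used. The deposited values were used with no further scaling. Probe sets with 1 symbol (23521) gave 22180 genes, of which the 1082 with several probe sets were represented by the one with the highest mean; 1814 probe sets with several symbols and 16010 with none were left out. A RefSeq table, GRCm38.p6, held 99.18% of the gene identifiers and supplied chromosomes and promoter sequences.

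limma 3.58.1 in R 4.3.3 was fitted to 6 group means (lmFit, then eBayes with a variance trend; residual degrees of freedom 6, prior 5.99), with Benjamini-Hochberg adjustment over all 22180 genes, and an adjusted p under 0.05 was called. The script was tested on simulated data: of 100 genes changed by 1 log2 unit 11 were called, and of 100 changed by 2 log2 units 73. No other of the 22180 genes was changed there between EpiSC and epiblast E6.5, whereas 20.8% of autosomal genes passed here. The Benjamini-Hochberg cutoff depends on that share, so these rates do not carry over to the reported fit. The number of arrays limits the precision. No batch or scan date was given in the labels.

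Named genes are the 15 highest and 15 lowest among those called whose groups do not overlap, up to 6 called and 3 other members of each of 41 lists, and a set of pluripotency, primed and adhesion genes chosen in any case; this rule left out predicted genes and small RNAs. Pou3f1, Ccn2, AF357355, AF357425 and those so described were named after their values were seen. The members and the lists were chosen with earlier results of these data known. The gene T was not analysed here. Alternatives were the replicate block, only the 4 arrays, quantile normalization, median centring, a signal filter, every probe set, mean of probe sets, no trend, array weights and leaving out each array. Same-numbered EpiSC and epiblast arrays did not deviate together (correlation of deviations 0.02), so numbers were not taken as pairs.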

Additional observations from a re-analysis of the deposited data

Results flagged for a closer look

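For 12 genes the signed difference of EpiSC from epiblast E6.5 was unlike that of rsEpiSC E6.5 by the test of the gap itself, EpiSC minus rsEpiSC E6.5, with limma's adjusted p over all genes. They are the 6 highest and the 6 lowest among genes that passed both there and in EpiSC minus epiblast E6.5. Tdgf1, the Nodal co-receptor, showed the widest gap, 7.27 ± 0.61, adjusted p = 6.73e-05, with rsEpiSC E6.5 at 3.80 and 3.42 and EpiSC at 10.24 and 11.52. It was -5.30 in rsEpiSC E6.5 relative to the tissue. For Cryab the difference was 5.90 ± 0.47, adjusted p = 5.39e-05, and for Gadd45b 5.21 ± 0.55, adjusted p = 0.000325. Mme, a surface peptidase, was at 8.85 and 8.06 in EpiSC, 5.63 and 4.86 in epiblast E6.5 and 3.53 and 3.20 in rsEpiSC E6.5, so the lines lay on opposite sides of the tissue (5.09 ± 0.43, adjusted p = 7.15e-05). Sema3e, a semaphorin, had the same arrangement, with 8.5 and 8.60, 6.89 and 6.37 and 4.19 and 3.74 (4.59 ± 0.36, adjusted p = 5.39e-05). The gap of Cldn4 was 4.58 ± 0.39, adjusted p = 7.3e-05.

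Lower in EpiSC than in rsEpiSC E6.5 was Car4 (-4.86 ± 0.37, adjusted p = 5.15e-05). Rian was below the tissue in EpiSC and above it in rsEpiSC E6.5 (-4.73 ± 0.38, adjusted p = 5.39e-05). Ptn, the growth factor pleiotrophin, was at 5.31 and 5.23 in EpiSC, 7.44 and 7.07 in epiblast E6.5 and 8.96 and 9.42 in rsEpiSC E6.5 (-3.93 ± 0.38, adjusted p = 0.000166). For Tmem223 the value was -4.73 ± 0.33, adjusted p = 4.09e-05, for Nnat -3.99 ± 0.66, adjusted p = 0.00507, and for Frzb -3.63 ± 0.48, adjusted p = 0.00137. In the last 3 genes rsEpiSC E6.5 lay within 1 log2 unit of the tissue.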

How the results depend on the processing

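The count of 4404 genes ranged from 2105 to 3181 when 1 array was left out, and the other settings kept it within 1.5 times. Of the 4404 genes, 3056 passed again in the same direction after quantile normalization and 3314 with only the 4 arrays compared. With the replicate number as a block 4080 genes passed, although the numbers do not pair the arrays. Between the tissue stages, where 5 genes passed, the count was 0 with array weights and with only the 4 arrays, 1 with every probe set and with the replicate block, 3 with centred arrays and among genes above the median signal, 13 after quantile normalization, and 0 to 150 with an array left out. For EpiSC minus rsEpiSC E6.5, where 829 passed, it was 1823 with array weights, 378 with every probe set, and 233 to 702 with an array left out. Chromosome 13, with the lowest median, was at -0.329 among genes above the median signal and at -0.109 after quantile normalization. Chromosome 8, the highest in the reported fit, was at 0.086 and 0.029. It was no longer the highest in either setting, where chromosome 12 was at 0.191 and 0.063. Of 533 list counts under alternatives, 61 moved by over 1.5 times. With an array left out, the lone array of its group is assumed to vary like the other groups. For dim genes, signal near background limits what these arrays can show.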
